A study of Mus musculus with 9 samples.

Results

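A set of 8 homeobox genes of the Pitx, Prrx and Alx groups and their relatives, namely Pitx1, Pitx3, Prrx1, Prrx2, Alx1, Alx4, Shox2 and Barx1, were followed in a list of accessible chromatin regions of the early mouse embryo. The regions of these 8 genes were those to which the deposited list gives one of the 8 symbols. They came to 6 of 17164 distinct regions and belonged to 3 of the 8 genes, Alx1 with 3 regions, Shox2 with 2 and Prrx1 with 1. No region was assigned to Pitx1, Pitx3, Prrx2, Alx4 or Barx1.

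The study profiled pharyngeal mesoderm and heart tissue of embryonic day 8.75 embryos (6 somites) by ATAC-Seq, an assay in which a transposase, Tn5, cuts open DNA and adds sequencing adapters to it, to ask how loss of Isl1 or Brg1 alters chromatin opening. Its 9 libraries comprised 3 of wild-type genotype, 3 of Isl1-/- embryos and 3 of Isl1Cre+/-/ Brg1fl/fl embryos. In the last group the Cre recombinase is expressed from Isl1, so that Brg1, the ATPase of SWI/SNF remodeling complexes, is deleted in cells that express Isl1 or descend from them, and 1 copy of Isl1 carries Cre. The values used here were 1 list of regions found in each of the 3 wild-type libraries, with mm9 positions, an assigned gene and the distance from the region midpoint to the assigned transcription start site (TSS). The mutant groups were not analysed here, and no genotype was compared. The list has no height or score and no value per library, so no value below has a replicate error and the depth behind it is unknown. A gene without a region in the list was not shown to have closed chromatin. In this bulk tissue, fewer cells with an open site and less opening per cell cannot be told apart.

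Homeobox genes encode transcription factors that bind DNA through the homeodomain, most often at sites with a TAAT core. The Prrx, Alx and Shox proteins carry paired-type homeodomains and can bind as dimers to a pair of facing TAAT sites, whereas the Pitx proteins have a lysine in the recognition helix that favors TAATCC. Members of these families are known for roles in the mesenchyme of the face, the pharyngeal arches and the limb buds, and Shox2 is in addition required for the sinus node, the pacemaker of the heart.

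The 5 sequences that follow were taken from NCBIM37, the assembly that mm9 is built on, on the plus strand. They come from 5 of the 6 regions, all but the start region of Alx1. They are shown so that coding open sequences of Prrx1 and Shox2 can be compared with distal ones of Shox2 and Alx1. The 3 distal ones are the 300 bases around the region midpoint, and the Prrx1 and Shox2 proximal ones are windows inside the region that hold coding sequence and intron. Capitals mark the E-box CAGATG, which reads CATCTG on the plus strand, and a sequence with no capitals held none of the motifs searched.

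Prrx1, chr1:165242467-165242766: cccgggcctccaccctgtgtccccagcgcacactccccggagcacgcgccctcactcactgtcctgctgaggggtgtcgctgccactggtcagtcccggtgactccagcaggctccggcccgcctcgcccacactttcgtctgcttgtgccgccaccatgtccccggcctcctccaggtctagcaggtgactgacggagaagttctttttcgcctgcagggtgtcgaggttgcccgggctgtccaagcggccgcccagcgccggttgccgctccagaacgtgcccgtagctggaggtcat
Shox2 proximal, chr3:66777575-66777874: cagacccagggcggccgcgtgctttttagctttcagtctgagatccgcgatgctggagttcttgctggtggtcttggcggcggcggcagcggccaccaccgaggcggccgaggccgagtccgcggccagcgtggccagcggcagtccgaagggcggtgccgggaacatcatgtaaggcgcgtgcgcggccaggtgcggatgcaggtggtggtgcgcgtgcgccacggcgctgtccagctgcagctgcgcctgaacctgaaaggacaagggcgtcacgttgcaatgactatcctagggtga
Shox2 distal, chr3:66551174-66551473: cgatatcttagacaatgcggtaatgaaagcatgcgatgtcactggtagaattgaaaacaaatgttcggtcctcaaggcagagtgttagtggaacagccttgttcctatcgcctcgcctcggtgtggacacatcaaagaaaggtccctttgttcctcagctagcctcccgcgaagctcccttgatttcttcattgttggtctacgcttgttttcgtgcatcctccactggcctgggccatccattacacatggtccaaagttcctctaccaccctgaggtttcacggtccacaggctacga
Alx1 near distal, chr10:102463612-102463911: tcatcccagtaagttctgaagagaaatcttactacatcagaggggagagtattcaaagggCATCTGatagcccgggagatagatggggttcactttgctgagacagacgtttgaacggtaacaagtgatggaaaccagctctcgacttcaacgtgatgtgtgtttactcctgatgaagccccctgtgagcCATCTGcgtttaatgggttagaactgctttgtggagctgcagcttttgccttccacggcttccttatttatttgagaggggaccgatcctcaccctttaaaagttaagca
Alx1 far distal, chr10:102360005-102360304: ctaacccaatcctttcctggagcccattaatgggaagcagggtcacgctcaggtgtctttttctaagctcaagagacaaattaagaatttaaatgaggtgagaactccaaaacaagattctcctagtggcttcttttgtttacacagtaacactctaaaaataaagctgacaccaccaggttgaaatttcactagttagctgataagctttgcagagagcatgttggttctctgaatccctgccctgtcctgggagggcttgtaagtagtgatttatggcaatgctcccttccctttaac

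The windows differed in CpG dinucleotides, but each was the stretch nearest the region midpoint that was free of UTR and other noncoding exon. For the coding windows this lay off the midpoint, so their CpG counts are not those of the region centers. The Shox2 proximal window held 33 CpG in 300 bases and the Prrx1 window 24, compared with 13 in the Shox2 distal window, 8 in the near distal window of Alx1 and 1 in its far distal window. In the Prrx1 window 241 bases are coding sequence and 59 intron, and its last 3 bases are the start codon of the gene, which lies on the minus strand. The Shox2 proximal window holds 291 coding and 9 intronic bases. The window of the Alx1 start region, which is not printed, held 226 coding bases, 21 CpG and 1 match to TAATCC. All 300 bases of each of the 3 distal windows are intergenic.

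Sequence upstream of the first annotated exon was also read for members in the RefSeq promoter table of GRCm38.p6, by an exact match to NCBIM37. The table held 5 of the 8 genes, Pitx3, Prrx1, Prrx2, Shox2 and Barx1, and Pitx1, Alx1 and Alx4 were not in it. For Prrx2 an annotated exon reached the first base of the promoter window, and no upstream sequence was left. The next 3 sequences are shown on the strand of the gene, with CpG in capitals. They contrast a promoter of low CpG content that lies inside a wide region with promoters outside every region.

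Prrx1 upstream, chr1:165243842-165244031: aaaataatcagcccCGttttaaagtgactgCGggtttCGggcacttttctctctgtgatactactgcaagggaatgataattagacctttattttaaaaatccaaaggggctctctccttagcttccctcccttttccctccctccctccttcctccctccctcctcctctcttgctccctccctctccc
Shox2 upstream, chr3:66785694-66785943: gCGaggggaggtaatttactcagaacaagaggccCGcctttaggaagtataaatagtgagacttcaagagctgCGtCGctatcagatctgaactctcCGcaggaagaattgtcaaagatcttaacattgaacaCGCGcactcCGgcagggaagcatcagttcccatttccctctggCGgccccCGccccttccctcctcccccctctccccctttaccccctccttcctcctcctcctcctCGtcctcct
Barx1 upstream, chr13:48758155-48758366: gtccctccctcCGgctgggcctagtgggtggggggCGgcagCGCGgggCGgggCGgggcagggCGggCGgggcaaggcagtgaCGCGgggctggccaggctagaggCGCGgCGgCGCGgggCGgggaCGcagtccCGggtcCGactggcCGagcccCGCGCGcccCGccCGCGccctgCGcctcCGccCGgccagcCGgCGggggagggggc

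The Prrx1 sequence lay inside an accessible region and held 3 CpG in 190 bases. The Shox2 sequence held 11 CpG in 250 bases and lay 3185 bp from the nearest region. The Barx1 sequence held 31 CpG in 212 bases, at a GC content of 85.4%, and lay 36665 bp from the nearest region. For Pitx3, 200 upstream bases held 14 CpG and the nearest region was 3343 bp away. Over the 32851 promoters of the table, the median number of CpG in the 250 bases before the start was 6.

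Alx1, which acts in the mesenchyme of the frontonasal region, had the most regions of the 8 genes. Its regions lay at 3 distances from the assigned TSS, 218 bp, 27650 bp and 131257 bp, all downstream. The first, chr10:102490585-102491802, was 1218 bp wide and covered 3 of the 4 annotated starts of the gene in the GENCODE annotation of NCBIM37. It comprised 226 bp of coding sequence, 363 bp of UTR, 512 bp of intron and 117 bp of intergenic sequence. The region at chr10:102463494-102464029 was 536 bp wide and that at chr10:102359827-102360481 was 655 bp wide, and both were intergenic and beyond the 3′ end of the gene. Both were narrow for their distance. Only 2.02% of the 6740 regions beyond 10 kb of their TSS were narrower than the first of them, and 9.38% were narrower than the second. The start region was close to the middle of its class, wider than 41.4% of the 9083 regions within 1 kb.

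Shox2 had 2 regions and neither was at a start. The proximal region, chr3:66777105-66778219, was 1115 bp wide, 5071 bp downstream of the assigned TSS and 8031 bp from the 5′ end of the annotated gene. It covered none of the 6 annotated starts and comprised 291 bp of coding sequence, 470 bp of UTR and 354 bp of intron. Its CpG frequency was 6.46 per 100 bp, higher than that of 91.0% of the 1341 regions 1 to 10 kb from their TSS, and its GC content was 57.7%. The distal region, chr3:66550804-66551843, was intergenic, 1040 bp wide and 231410 bp downstream of the TSS. At 2.88 per 100 bp, its CpG frequency was higher than that of 87.3% of the regions beyond 10 kb. Both Shox2 regions were therefore high in CpG for their distance, and their widths lay closer to the middle, above 59.3% and 65.3% of their classes.

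Prrx1, which marks mesenchyme of the limb bud and face, had 1 region and it was the widest of the 6. The region chr1:165241235-165244220 was 2986 bp wide, more than 98.0% of the 1341 regions at 1 to 10 kb and more than 99.3% of all regions. Its midpoint was 1054 bp downstream of the assigned TSS, and the region reached over 3 of the 4 annotated starts of the gene. It comprised 241 bp of coding sequence, 1075 bp of UTR, 1291 bp of intron and 379 bp of intergenic sequence. The region was thus placed outside the 1 kb class by its midpoint although it covered starts. Its GC content was 52.2%, close to the class median of 51.7%. Its CpG frequency, 3.48 per 100 bp, was higher than that of 63.9% of the class, whose median was 2.46. Words of 31 bases that occur more than once in the genome made up 1.35% of the Prrx1 region and none of any of the 5 Alx1 and Shox2 regions.

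**Figure D1:**
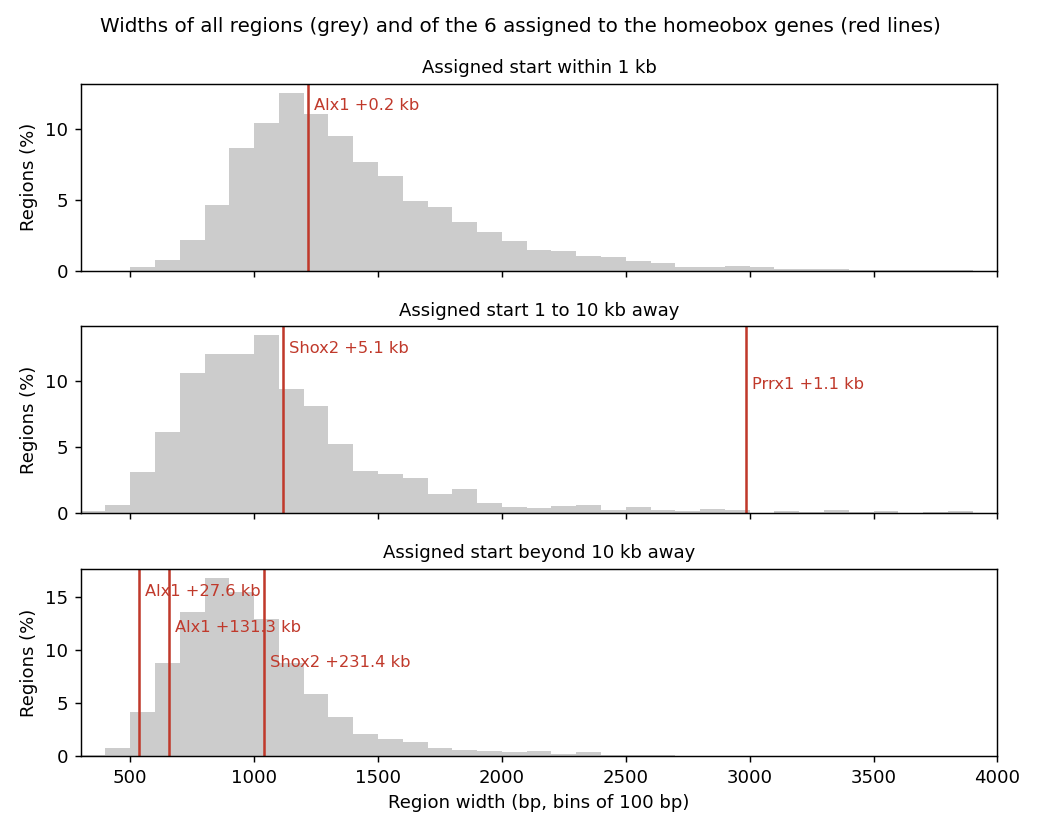
Width of each of the 6 regions (red lines, named by gene and distance downstream of the assigned TSS) over the distribution of all regions of the same distance class (grey, percent of regions per 100 bp of width). The Prrx1 region, 2986 bp, stands in the upper tail of its class, and the Alx1 regions of 536 and 655 bp in the lower tail of theirs; the axis leaves out the few widest regions.

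As a group, the 6 regions covered 7550 bp, and the median of their widths, 1077.5 bp, was near the 1123 bp of all regions. Behind this median, Prrx1 stood near the top of its class and the distal Alx1 regions near the bottom. A share of 50% (3 of 6, 95% Wilson interval 18.8 to 81.2%) lay beyond 10 kb of the assigned TSS, compared with 39.3% of all regions, which is inside that interval. The interval covers counting error only. All 6 midpoints were downstream of the assigned TSS, compared with 56.1% of all regions. The 6 regions belong to 3 genes and are not independent of each other.

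Region counts were then read against those of protein-coding genes. Of the 8 genes, 3 had a region (37.5%, interval 13.7 to 69.4%), compared with 49.3% of 21031 protein-coding genes, which is inside that interval. A region within 1 kb of the assigned TSS was listed for 1 of the 8, Alx1, compared with 40.6% of coding genes. A GENCODE start lay inside a region for Prrx1 and Alx1, 2 of the 8, compared with 43.4% of 22219 coding genes. Alx1 was also the only 1 of the 8 with 3 or more regions, a number reached by 4.96% of coding genes.

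The 5 genes without an assigned region differed in how far the nearest region lay. Pitx3, a gene of the lens and of midbrain dopamine neurons, had a region 4067 bp upstream of its 5′ end, which was assigned to Gbf1, a Golgi exchange factor gene, and lay at that gene's own start. Barx1, known for the stomach mesenchyme and the molar teeth, had its nearest region 37333 bp upstream, at the start of Ptpdc1. For Prrx2, a paralog of Prrx1, the nearest region was 76273 bp upstream and was assigned to Mir3089, a microRNA gene. Pitx1, which directs hindlimb identity, and Alx4, which acts in the limb bud and the skull, had the longest distances. The nearest region to Pitx1 was 143100 bp downstream, at the start of B230219D22Rik, and the nearest to Alx4 was 153340 bp upstream, assigned to Cd82 but over 10 kb from its TSS. Distances below 5000 bp and above 100 kb thus both occurred among genes with no region of their own.

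For the genes with assigned regions, nearness to a region is in part fixed by the assignment itself, so the distances are given as description only. The nearest midpoint was 492 bp from the 5′ end of Alx1 and 1114 bp from that of Prrx1. For Shox2 it was 4026 bp upstream and belonged to Rsrc1, a gene linked to RNA splicing, whose start region is closer to the Shox2 5′ end than the proximal region of Shox2 itself. Over the 8 genes the median distance was 20700 bp, compared with 9781 bp over 22219 coding genes, whose quartiles were 171.5 and 59691.5 bp.

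**Figure D2:**
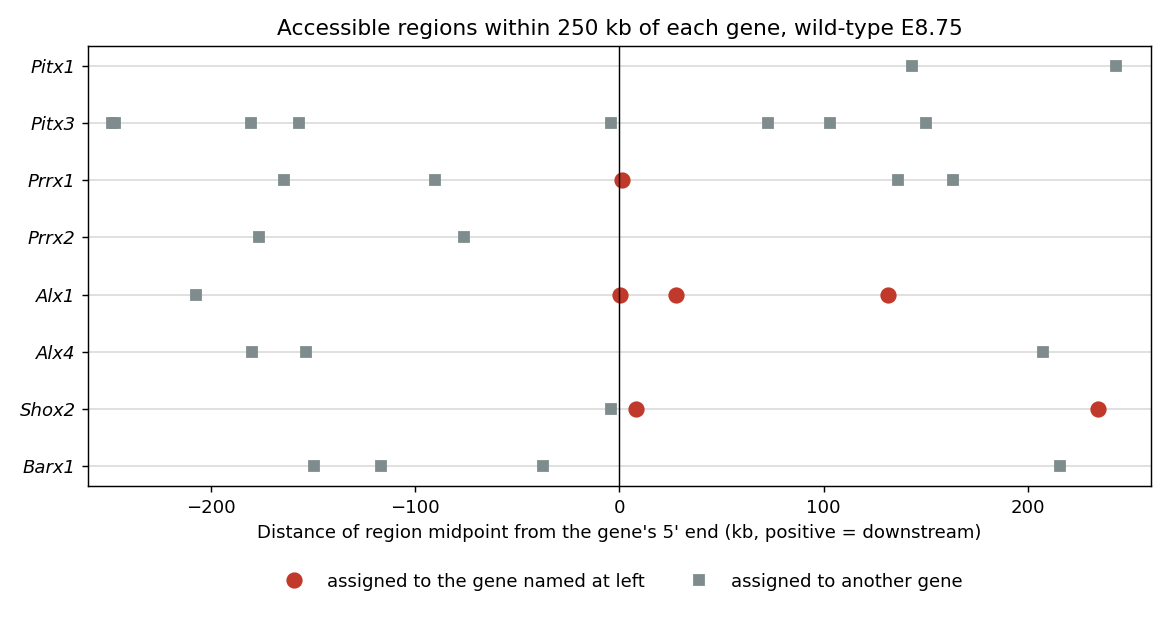
Midpoints of accessible regions around the 5′ end of each of the 8 genes, in kb along the direction of transcription (positive values downstream). Red circles are regions assigned to the gene named at left and grey squares are regions assigned to other genes; Pitx1 and Alx4 have no region within 100 kb, and all 6 red circles lie downstream.

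Within 100 kb of the 5′ ends lay 10 regions, of which 4 were assigned to the gene itself and 6 to another gene. Of those 6, 5 were at the promoter of the gene they were assigned to, within 1 kb of its TSS, and the other was the Mir3089 region. At least 1 region was found within 100 kb for 6 of the 8 genes, compared with 83.1% of coding genes. The counts were 2 each for Pitx3, Prrx1, Alx1 and Shox2, 1 each for Prrx2 and Barx1, and 0 for Pitx1 and Alx4, and the median of coding genes was 2. No member exceeded that median, which 4 of them equalled. Larger windows set Pitx3 apart from the other members. Within 250 kb Pitx3 had 8 regions and each of the others 2 to 5, against a coding median of 5. Within 500 kb Pitx3 had 12, Alx4 had 10 and the others 6 to 8, against a median of 9. The upper quartiles of coding genes were 8 and 13, which Pitx3 did not exceed. All 8 Pitx3 regions within 250 kb lay within 1 kb of the TSS of another gene. The additional Pitx3 neighbors included a region at the promoter of Ldb1, 102848 bp downstream, which encodes a cofactor that binds LIM-homeodomain proteins such as Isl1. Ldb1 was picked for mention after its position had been seen.

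**Figure D3:**
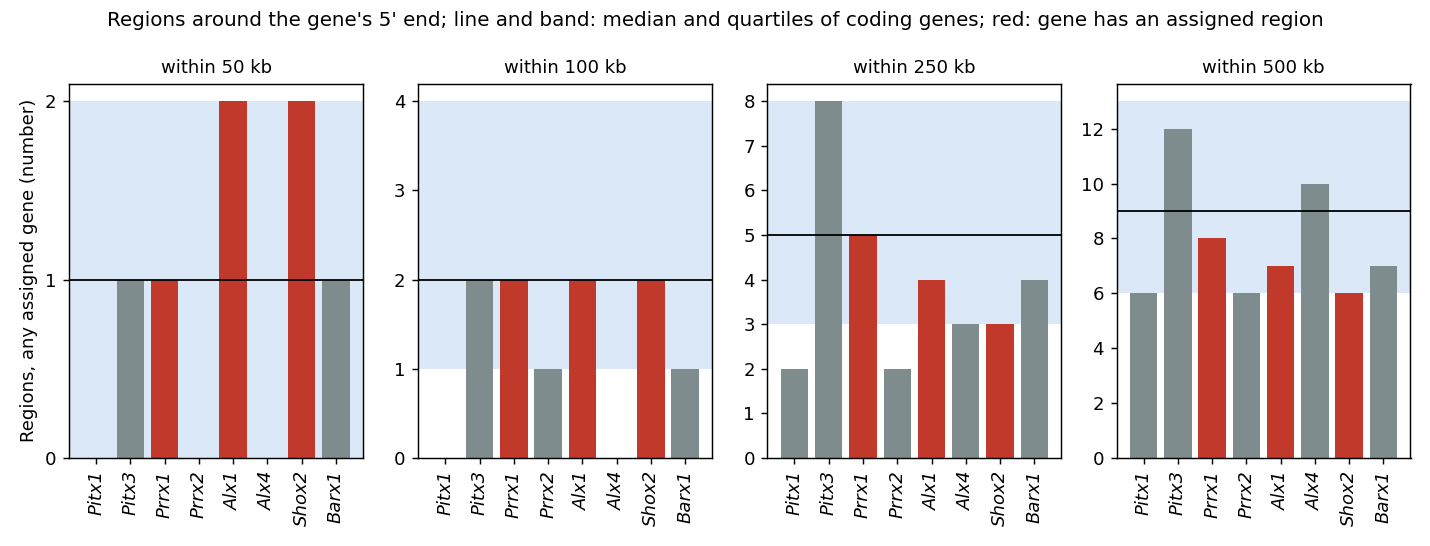
Number of accessible regions, whatever gene they were assigned to, within 50, 100, 250 and 500 kb of the 5′ end of each gene (bars, red for the 3 genes with an assigned region). The line and band are the median and quartiles over 22219 coding genes; Pitx3 is above the median within 250 and 500 kb and Alx4 within 500 kb, and Pitx1 and Prrx2 are below it in all 4 windows.

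Most of the 8 genes were surrounded by long stretches with no other coding start. The span of sequence nearer to a start of the gene than to a start of any other coding gene had a median of 137.5 kb, compared with 46.7 kb over coding genes, and 6 of the 8 were above that value. Alx1 had the longest span, 365.3 kb, followed by Shox2 with 345.9 kb, and these are the genes with 3 and 2 regions. Pitx3 had the shortest, 14026 bp. The 8 spans added up to 1284 kb and held the 6 assigned regions, as follows from assignment to the nearest start, which gives these 6. This is 0.467 regions per 100 kb, compared with 0.671 over the sequenced genome. The comparison is not like for like, because 52.9% of all regions lay within 1 kb of their TSS and long spans hold few starts per kb. The value for the 8 genes rests on 6 regions and has no interval. Pitx1 and Barx1 had spans of 152.5 and 122.6 kb with no region in them, so a long span did not always hold one.

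CpG frequency at the starts was compared between these genes and coding genes as a whole. It was taken as the highest value within 500 bp of any annotated start of the gene, and it was added after the region list had been seen. Across coding genes, the share with a start inside a region rose with CpG frequency, from 0.376% in the lowest of 10 groups ranked by CpG frequency (2035 to 2501 genes each) to 76.1% in the highest. The 8 genes had a median of 6.04 CpG per 100 bp, compared with 4.60 over coding genes, and 7 of the 8 were above that median. Among those 7, only the start of Alx1, at 5.19 per 100 bp, lay inside a region, compared with 71.1% of the 11059 coding genes in the CpG-richer 5 of the 10 groups. Barx1 had the highest value, 11.3, followed by Pitx1 with 9.19 and Shox2 with 8.99, and no start of these 3 genes lay inside a region, although 72.6 and 76.1% of the coding genes in their groups had one that did. Prrx2 with 6.09, Pitx3 with 5.99 and Alx4 with 5.49 also had no covered start. Prrx1 was the reverse case. Its value of 2.60 placed it in a group of which 19.7% had a covered start, and 3 of its starts were covered. The region over them was 2986 bp wide, with its midpoint in coding sequence, 1114 bp from the 5′ end. What accounts for these departures from the CpG groups was not tested.

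**Figure D4:**
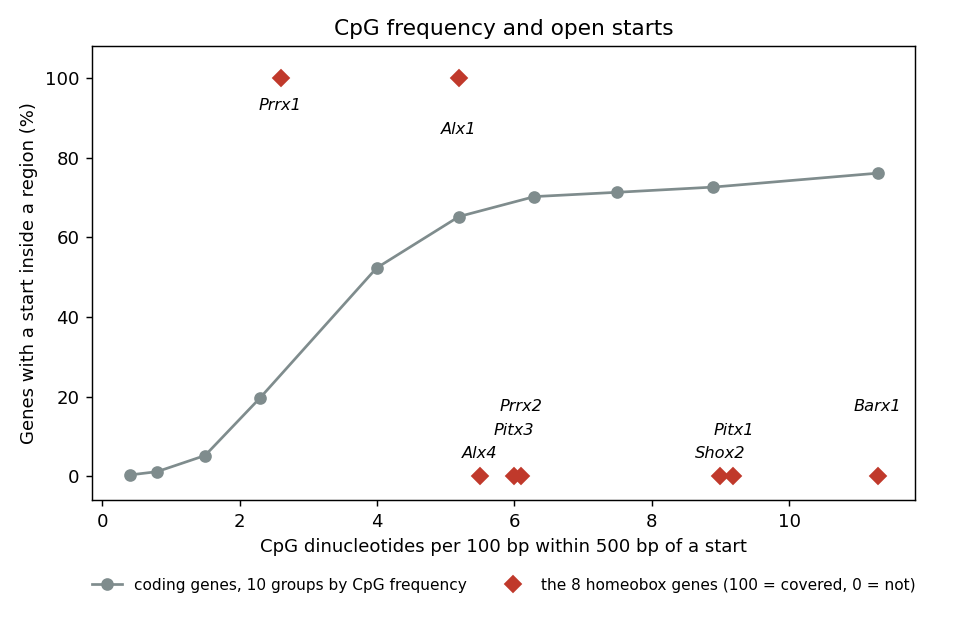
Share of coding genes with a start inside a region (percent, grey line) against the median CpG frequency at the start, for 10 groups of genes ranked by that frequency. Red diamonds are the 8 homeobox genes at their own CpG frequency, drawn at 100 where a start was covered and at 0 where none was; Pitx1, Shox2 and Barx1 lie at the CpG-rich end with no covered start, and Prrx1 at the CpG-poor side with one.

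Related homeobox genes were placed beside them. Of 18 other paired-type and Barx genes, 10 had a region (55.6%), 12 regions in all. The Dlx and Msx families are also known for roles in face and limb mesenchyme. Of 9 Dlx and Msx genes, 5 had a region (55.6%), 8 regions in all. Both shares were near the 49.3% of coding genes with a region. Dlx1 and Msx1 had 1 within 1 kb (22.2%), compared with 40.6% of coding genes. In the CpG-richer groups a start was covered in 1 of 11 of the paired-type and Barx genes (Otx1) and in 2 of 9 Dlx and Msx genes (Dlx1 and Msx1). These counts stood nearer to the 1 of 7 of the Pitx, Prrx, Alx, Shox2 and Barx1 genes than to the 71.1% of coding genes. Barx2, the paralog of Barx1, had 2 regions, both over 10 kb from the TSS.

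Genes that mark the dissected tissue were checked in the same list. Of Isl1, Tbx1, Tbx20, Hand2, Gata4 and Mef2c, 5 had a region, 20 in all with 9 at Isl1, and Tbx1 had none. A region lay within 1 kb of the TSS at 4 of them, Isl1, Tbx20, Hand2 and Mef2c. Of the 5 in the CpG-richer groups, Isl1, Hand2 and Tbx20 had a covered start, and Gata4 and Tbx1 had none. Of 6 genes of other tissues (Alb, Afp, Neurod1, Myod1, Hbb-b1 and Cdx2), 3 had a region, 5 in all with 3 at Neurod1. A region was thus assigned to 50% of them and to 83.3% of the genes of the dissected tissue, compared with 49.3% of coding genes. None of the 6 genes of other tissues had a region within 1 kb, which 40.6% of coding genes had. Only Neurod1 and Cdx2 of these were in the CpG-richer groups, and neither had a covered start. The lists also differ in median CpG frequency at the starts, 2.90 per 100 bp here and 6.04 for the genes of the dissected tissue.

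Short motifs were counted on both strands in the 6 regions. In the central 300 bp, TAATCC or a TAAT followed by ATTA at a gap of 2 or 3 bases occurred in 1 of 6 regions (16.7%, interval 3.01 to 56.4%), the start region of Alx1. The share was 6.79% over all regions, which is inside that interval, and 3.64% over regions within 1 kb. The 1 match was TAATCC. In whole regions, TAATCC was found 2 times in the start region of Alx1 and 1 time in the Prrx1 region, 2 of 6 regions, compared with 28.7% of all regions, and the paired TAAT-ATTA motif was in none of the 6 and in 2.96% of all regions. The E-box CAGATG, a motif type bound by bHLH factors, occurred 3 times in the 536 bp of the near distal Alx1 region, 2 of them in the window printed above. It also occurred 3 times in the Prrx1 region and 1 time in the distal Shox2 region, 3 of 6 regions, compared with 49.7% of all regions. The GATA motif AGATAA was found 1 time in each of 4 regions, all 3 distal ones and that of Prrx1, where it overlaps TAATCC by 3 bases. It was in 35.8% of all regions and in 43.6% of those beyond 10 kb. CTAATG, a site type of Isl1, was found in the start region of Alx1 and the distal region of Shox2, 2 of 6, compared with 26.9%. Neither AGATAA nor CTAATG had a match in the central 300 bp of the 6 regions, compared with 8.53 and 6.85% of all regions. No region held the T-box motif AGGTGTGA, which 3.57% of all regions held, and the proximal Shox2 region held none of the 6 motifs. Of the 4 upstream sequences (Pitx3, Prrx1, Shox2 and Barx1), that of Pitx3 held a motif and the others none. The motif was CAGATG, which 14.4% of the promoters in the table held. A match is a string of letters and does not show that a factor was bound.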

How the data were processed

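The authors prepared 9 ATAC-Seq libraries from dissected tissue, and the genotype label of each sample gave its group. Per the methods of the study, the authors mapped reads to mm9 with bowtie2, filtered them with samtools, removed duplicates with Picard 1.136, called peaks per library with MACS14, removed blacklisted regions and kept regions shared by the replicates with bedtools 2.15 (1 bp of overlap or more). Columns used here from the deposited list are start, end and distance to the TSS in bp, and no column holds counts, scores or p-values (0 columns were left unmapped). No shift of reads to the Tn5 cut site is described, and region edges and widths are those of the peak caller. A region in the list had to be found in each library, which favors strong sites. Gene assignment by the closest TSS is described for ChIP-Seq peaks alone, and for these regions the method is not given in the sources used here.

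Rows with equal positions were counted once (17432 rows). Width was end minus start plus 1. The RefSeq gene table (GRCm38.p6, used for names and gene types) held 11161 of the 11541 listed transcripts by accession; symbols matched a further 359, synonyms 15, and 6 stayed unmatched. Sequence and gene structure came from NCBIM37 with its GENCODE annotation. CpG at a start was counted within 500 bp. Repeated sequence was called from 31-base words present more than once in the genome. Intervals are 95% Wilson intervals. The counting steps were tested on simulated data. No test was run, because the list has no value per library. The 8 genes and the comparison lists were chosen with earlier results of these data known. The genes named were the 8 members, those assigned regions within 100 kb of them, the related genes and the tissue check; some related genes are not reported here by name and remain in the counts. A comparison of homeodomain protein sequences was not analysed here. Alternatives were other regions, assignments, distances, windows and the joining of neighbors closer than 5000 bp. Python 3.11.15, numpy 2.4.6, pandas 2.3.3, scipy 1.17.1 and matplotlib 3.10.9 were used.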

Additional observations from a re-analysis of the deposited data

How the results depend on the processing

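Of 21 alternative values, 15 stayed within the spread allowed and 6 moved. When regions narrower than the median of all regions were left out, the 8 genes had 2 regions instead of 6. None of these (0%) lay beyond 10 kb, and 4 regions instead of 10 lay within 100 kb of the 5′ ends. Both distal Alx1 regions and both Shox2 regions are narrower than that median. Genes with a region thereby fell from 3 to 2, without Shox2, a change within the spread allowed. The number of genes with a promoter region rose from 1 to 2 when 2000 bp counted as promoter, and also to 2 when a start inside a region counted, an alternative chosen after seeing the data, in each case by adding Prrx1. A window of 250 kb held 31 regions, by construction more than the 10 within 100 kb. Assigning regions to the nearest GENCODE start kept 6 regions and 3 genes. No paired analysis was possible because the list is 1 consensus of the 3 wild-type libraries with no value per replicate, and for the same reason no library could be left out. The unknown depth limits what the absence of a region shows.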
